A study of Mus musculus with 6 samples.

Results

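Microtubules are polymers of alpha and beta tubulin, and mammals make each of them from several genes whose products are called isotypes. The isotypes examined here were the 10 genes Tuba1a, Tuba1b, Tuba1c, Tuba4a and Tuba8 (alpha) and Tubb2a, Tubb2b, Tubb3, Tubb4b and Tubb5 (beta), which were taken by name out of the 55291 genes of the deposited table. RNA sequencing had been carried out on full-grown mouse oocytes labelled WT or KO, where the series text gives a maternal deletion of Pan2 as the genotype. Pan2 encodes the nuclease of the PAN2-PAN3 deadenylase, which shortens poly(A) tails, and the comparison asks how mRNA levels differ when it is lost. The labels name 6 samples, of which the table holds 5 libraries, WT 1, WT 2, KO 1, KO 2 and KO 3; strain, age, the deleting Cre and the number of oocytes in a library are not stated in the sources used here, nor whether replicates came from separate females, so p-values reflect library-to-library spread alone, which may be technical.

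WT 2 was set aside, since its counts did not follow the gene models on the chromosomes that carry these genes. Over genes with a mean of at least 5 CPM, the usual depth-scaled count, it correlated with the other libraries at 0.0374 to 0.0563 on a log2 scale, while those correlated with one another at 0.909 to 0.987, and all 10 tubulin genes together had 177 counts in it. The comparisons below therefore set 1 WT library against 3 KO libraries. Total counts were 23485093 for WT 1 and 12038990, 23359636 and 26770521 for the KO libraries, which are always given in the order KO 1, KO 2, KO 3. All 13 oocyte markers in the table, the zona pellucida genes and Gdf9 among them, had counts in these libraries, with a summed level of 30746 CPM in WT 1 and 26660 to 33521 CPM in the KO libraries.

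The full-grown oocyte holds a store of tubulin and tubulin mRNA for the meiotic spindle, which is built without centrioles, and for the first divisions of the embryo. The level of tubulin mRNA is known to be set in part by a decay pathway, worked out in human cells, in which TTC5 recognises the first residues of the tubulin chain as it leaves the ribosome and, through SCAPER, brings in the CCR4-NOT deadenylase. The isotypes differ from one another mostly in their C-terminal tails, which stand out from the microtubule surface and carry the glutamates to which further glutamates are added. In primates an additional beta isotype, TUBB8, predominates in the oocyte; the mouse has no counterpart of it.

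The start of the reading frame is shown because TTC5 reads its product. The first 30 coding bases are given 5′ to 3′ from the GENCODE M21 transcripts (mm10), with the 4 codons of that recognition stretch in capitals.
Tuba1c: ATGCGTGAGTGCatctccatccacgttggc
Tuba4a: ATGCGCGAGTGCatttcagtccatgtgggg
Tubb2a: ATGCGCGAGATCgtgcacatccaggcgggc
Tubb3: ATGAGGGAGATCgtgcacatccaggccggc
Tubb4b: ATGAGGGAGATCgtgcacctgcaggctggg
The capitals of Tubb3 and Tubb4b were identical, and those of Tubb2a differed from them only in the arginine codon, CGC in place of AGG. These beta capitals thus encode the same residues. Whether the stretch bears on the levels given below was not tested.

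The last 60 coding bases before the stop codon are shown because this is where the isotypes part. Glutamate codons are in capitals.
Tuba4a: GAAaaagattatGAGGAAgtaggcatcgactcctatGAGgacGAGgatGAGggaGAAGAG
Tubb2a: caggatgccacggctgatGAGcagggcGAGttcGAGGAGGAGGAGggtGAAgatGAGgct
Tubb3: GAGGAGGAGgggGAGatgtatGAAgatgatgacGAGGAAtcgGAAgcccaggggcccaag
Tubb4b: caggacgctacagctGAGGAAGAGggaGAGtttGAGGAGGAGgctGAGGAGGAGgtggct
Tubb5: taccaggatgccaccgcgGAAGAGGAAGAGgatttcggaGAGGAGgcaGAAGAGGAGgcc
Among these last 20 codons the number of glutamate codons was 8 in Tuba4a, Tubb2a and Tubb3, 9 in Tubb5 and 10 in Tubb4b. Tuba4a ends in a glutamate codon, so it lacks the terminal tyrosine that is removed and put back in the detyrosination cycle of other alpha tubulins.

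The same likeness limits what the counts can say. Tuba1a, Tuba1b and Tuba1c lie together on chromosome 15 (98949837 to 98953703, 98931425 to 98934565 and 99029891 to 99038110 in mm10), and their coding sequences were 97.1% to 98.3% identical. Tubb2a and Tubb2b, neighbours on chromosome 13 (34074274 to 34078007 and 34126748 to 34130466), were 96.5% identical. Of the 100-base windows of its transcripts, 34.2% in Tuba1a, 36.8% in Tuba1b, 52.5% in Tuba1c, 63.1% in Tubb2a and 73.7% in Tubb2b were found in no transcript of another annotated gene.

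Tubb3 (chromosome 8, 123411424 to 123422015) and Tubb5 (chromosome 17, 35833921 to 35838306) shared no such window with any other gene, which makes their counts the most readily assigned of the 10 isotypes. Tubb4b (chromosome 2, 25222160 to 25224702) had 78.3% of windows to itself, and shared others with Gm16165, Fam166a and its processed pseudogenes. Tuba8 (chromosome 6, 121210696 to 121226854) had 87.5%. Tuba4a (chromosome 1, 75214228 to 75219865) had 64.5%, because 1379 of its exon bases, 37.3%, also belong to exons of Stk16 on the other strand. Of the exon bases of Tuba1a and Tuba1b, 26.2% and 22.7% are shared with Gm49450 on the same strand, a gene with 0 counts in every library. How reads with several matches or several genes were counted is not stated in the sources used here, nor is the strand setting. Levels of the Tuba1 genes, Tuba4a, Tubb2a, Tubb2b and Tubb4b are uncertain to that extent.

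**Figure D1:**
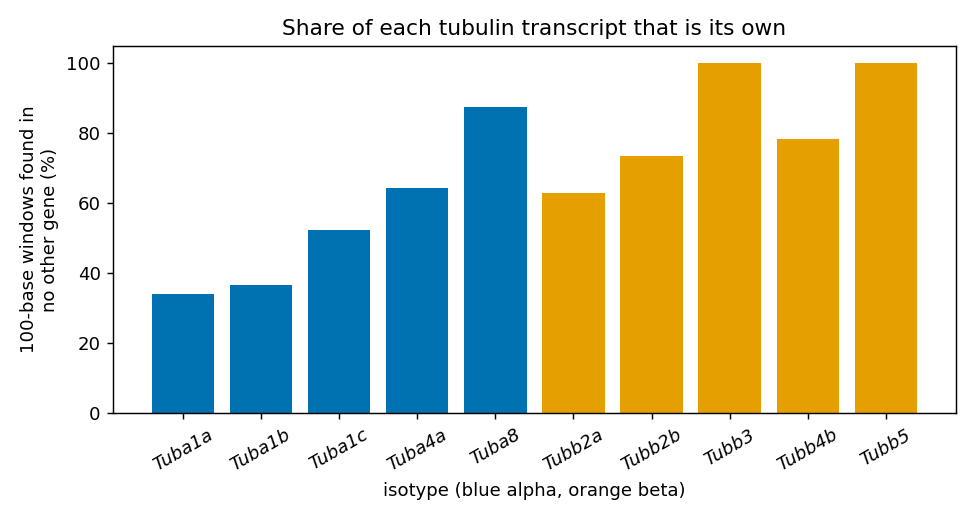
Share (%) of the 100-base windows of each isotype's annotated transcripts that occur in no other gene, alpha in blue and beta in orange. Tuba1a and Tuba1b have the lowest shares, 34.2% and 36.8%, while Tubb3 and Tubb5 reach 100%.

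Beta tubulin mRNA was led by Tubb4b. Levels of different genes are compared here as FPKM, the TMM-scaled CPM divided by the exon length in kilobases. Tubb4b, the widely expressed isotype that is also the main beta tubulin of cilia, stood at 419 FPKM in WT 1 and at 439, 689 and 606 FPKM in the KO libraries. It was the highest of the 10 isotypes in each of the 4 libraries, above 99.3% of the genes tested in WT 1, and the WT level lay below every KO level with KO 1 close to it.

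Tubb2a, an isotype best known from the brain, came next at 270 FPKM in WT 1 and 217, 453 and 354 FPKM in the KO libraries. WT 1 lay inside the KO range for this gene, above KO 1 and below the others. Its neighbour Tubb2b, known from migrating neurons, reached only 8.71 FPKM in WT 1 and 17.6, 13.2 and 25.9 FPKM in the KO libraries. All KO values of Tubb2b lay above WT 1, with KO 2 the nearest to it and KO 3 the farthest.

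Tubb3, the isotype used as a marker of neurons, had the third highest FPKM of the 10 in every library. It stood at 103 FPKM in WT 1 and at 151, 233 and 227 FPKM in the KO libraries, so that WT 1 lay below all KO libraries. Tubb5, the general-purpose beta isotype of most dividing cells, stood at 71.5 FPKM in WT 1 and 59.6, 75.3 and 81.7 FPKM in the KO libraries, with WT 1 inside the KO range. In FPKM, Tubb3 thus exceeded Tubb5 in each library, by a ratio of 1.44 in WT 1 and of 2.54, 3.10 and 2.77 in the KO libraries. In counts not divided by length, Tubb3 was below Tubb5 in WT 1, at 10.9% against 13.5% of the beta isotypes examined. It stayed above Tubb5 in every KO library.

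Of the 5 alpha isotypes examined, Tuba1c, Tuba4a and Tuba1b gave most of the mRNA. Tuba3a, an alpha gene outside them, is described below and had a higher FPKM than any of these in every library. In CPM, which is not divided by length, Tuba3a was at 116 in WT 1, below Tuba1c and Tuba4a at 166 and 223. It was above both in every KO library. Tuba1c, a broadly expressed isotype, stood at 72.8 FPKM in WT 1 and 68.6, 89.96 and 80.9 FPKM in the KO libraries. Tuba4a, the isotype made without the C-terminal tyrosine, was the steadiest member, with 60.2 FPKM in WT 1 and 57.1, 61.4 and 57.4 FPKM in the KO libraries. For both, WT 1 lay inside the KO range. Tuba1b, an isotype present in nearly all cells, stood at 31.7 FPKM in WT 1 and at 37.5, 37.3 and 40.5 FPKM in the KO libraries, all of them above WT 1.

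The other alpha isotypes among the 10 were scarce. Tuba1a, the main alpha tubulin of young neurons, had 21 counts in WT 1 and 15, 61 and 57 counts in the KO libraries, or 0.487, 0.676, 1.51 and 1.18 FPKM. Tuba8, a divergent isotype, had 1 count in WT 1 and 2, 0 and 4 counts in the KO libraries. These counts are near 3, the expected count that an observed 0 would still allow, so no fold is given for Tuba8.

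Read down the order of mean level, Tubb4b, Tubb2a, Tubb3, Tuba1c, Tubb5, Tuba4a, Tuba1b, Tubb2b, Tuba1a and Tuba8, each gene exceeded the next in 4 of 4 libraries, with the exception of Tuba1c and Tubb5, whose order held in 3. This order rests on division by exon length. In counts not divided by length, Tuba4a exceeded Tuba1c in all 4 libraries. It took 49.5%, 48.0%, 45.0% and 44.6% of the 5 alpha isotypes, against 37.0%, 35.7%, 40.7% and 38.9%. The FPKM ranges over libraries overlapped between Tubb4b and Tubb2a, Tubb2a and Tubb3, Tuba1c and Tubb5, and Tubb5 and Tuba4a. Within a library the ratio of Tubb4b to Tubb2a was 1.52 to 2.02, and that of Tubb2a to Tubb3 1.43 to 2.63, whereas Tuba1c over Tubb5 ran from 0.99 to 1.20 and Tubb5 over Tuba4a from 1.04 to 1.42, so the last pairs were the closest.

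**Figure D2:**
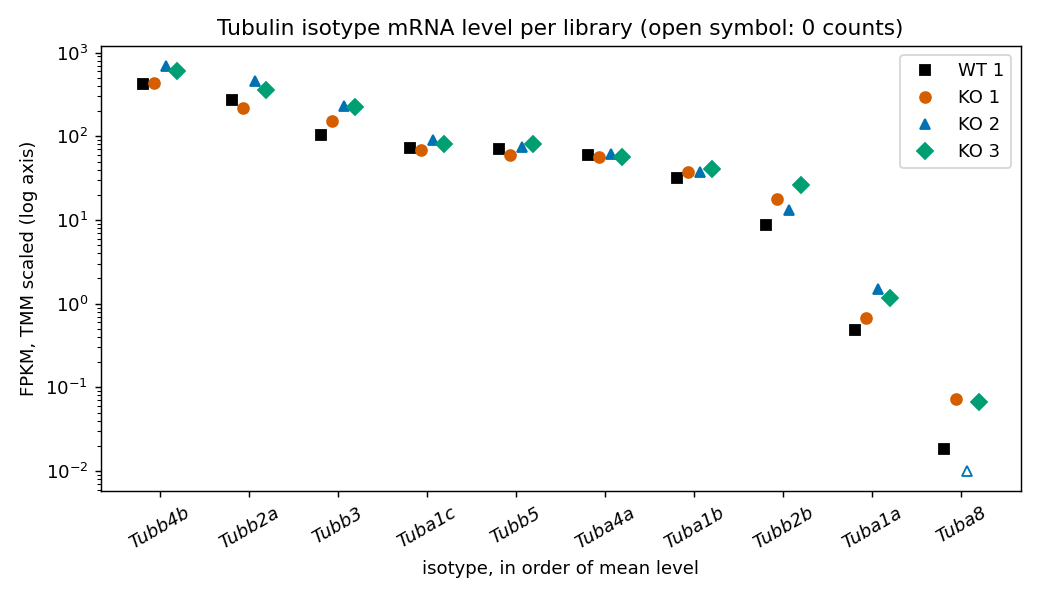
Level of each isotype (FPKM with TMM scaling, log axis) in WT 1 and the 3 KO libraries, ordered by mean level; the open symbol marks 0 counts, for Tuba8 in KO 2, and is drawn at the foot of the axis. Tubb4b is highest in each library, from 419 FPKM in WT 1 to 689 FPKM in KO 2, and Tuba1a and Tuba8 lie far below the other isotypes.

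As shares of the 5 isotypes examined in each class, the KO mean and WT 1 differed by at most 5.06 percentage points, which was the difference for Tubb3; shares of all genes of a class differ and are given where they change a direction. Within the 5 beta isotypes, counts per kilobase of exon gave Tubb4b 48.0% for WT 1 against a KO mean of 47.8 ± 1.56% (SD, n = 3), and Tubb2a 31.0% against 27.6 ± 3.21%. Tubb3 took 11.8% in WT 1 and 17.1%, 15.9% and 17.5% in the KO libraries, and Tubb5 took 8.20% against 6.74%, 5.14% and 6.31%. The share of Tubb3 was thus higher, and that of Tubb5 lower, in every KO library than in WT 1. Tubb2b took 1.00% in WT 1 and 1.63 ± 0.633%, with KO 2, at 0.899%, below WT 1.

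Within the 5 alpha isotypes Tuba1c took 44.0% in WT 1 against a KO mean of 44.7 ± 2.73% (SD, n = 3). Tuba4a took 36.4% in WT 1 and 34.8%, 32.3% and 31.9% in the KO libraries, and Tuba1b 19.2% against 22.9%, 19.6% and 22.5%. KO shares were below WT 1 for Tuba4a and above it for Tuba1b in all 3 libraries, by margins that in KO 1 and KO 2 respectively were small. As a share of all alpha genes and pseudogenes of the table, Tuba1b was instead below WT 1 in all 3, at 10.01% against 9.21%, 8.14% and 9.69%, and Tuba4a took 19.0% against 14.0%, 13.4% and 13.7%. With 1 library against 3, an exact permutation test of a single value cannot give a p below 0.25, so no test of these shares was made. When each length was restricted to the exon bases whose windows are unique to the gene, Tuba1b made up 27.1% in WT 1 and 29.99% on average in KO oocytes, and Tuba4a 28.0% and 24.9%, so their order in the KO group depends on the length used.

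**Figure D3:**
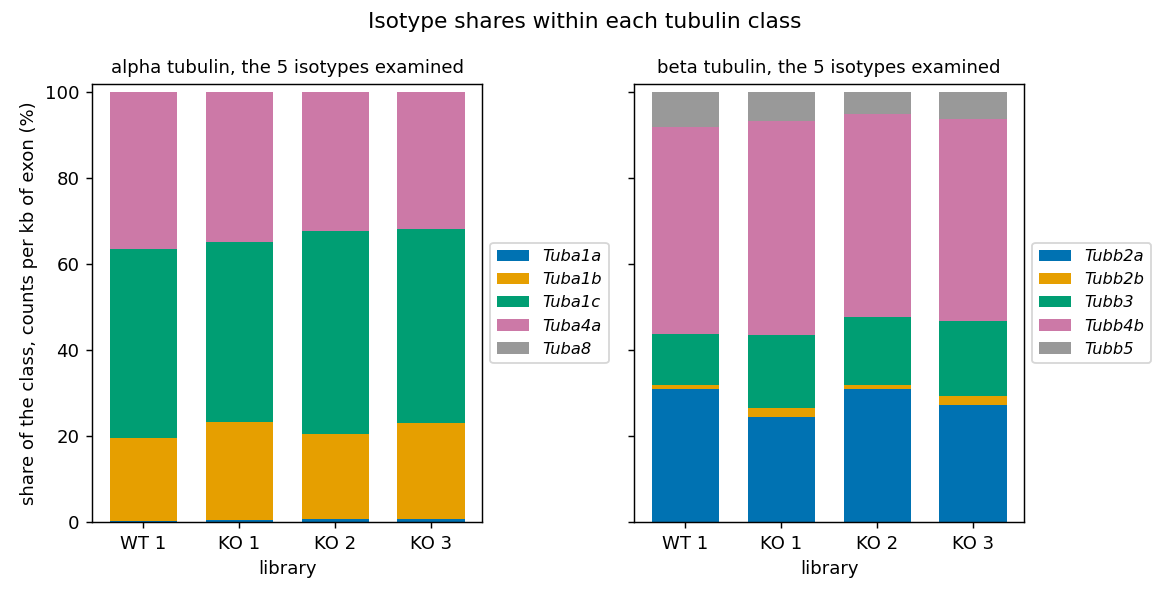
Share (%) of each isotype in the summed counts per kilobase of exon of the 5 isotypes examined in its class, alpha on the left and beta on the right, one bar per library; Tuba3a and other tubulin genes are not included. In the beta panel the Tubb3 segment widens from 11.8% in WT 1 to between 15.9% and 17.5% in the KO libraries, and in the alpha panel Tuba1c takes 41.8% to 47.3% in all 4 libraries.

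Summed over the 5 isotypes examined in each class, beta tubulin mRNA stood higher in KO 2 and KO 3 than in WT 1 and alpha tubulin mRNA differed less; with all alpha genes of the table counted, given below, alpha stood higher in every KO library as well. The 5 beta genes took 0.179% of all counts in WT 1 (exact 95% binomial interval 0.177% to 0.181%), 0.183% in KO 1 (0.180% to 0.185%), 0.276% in KO 2 (0.274% to 0.279%) and 0.259% in KO 3 (0.257% to 0.261%). The 5 alpha genes took 0.0458% in WT 1 (0.0450% to 0.0467%), 0.0450% in KO 1 (0.0438% to 0.0462%), 0.0485% in KO 2 (0.0476% to 0.0494%) and 0.0475% in KO 3 (0.0467% to 0.0483%). Intervals cover counting error only, as amplified reads are not independent molecules. The intervals of KO 1 and WT 1 overlapped in both classes, though overlap is no test of their difference, and KO 1 lay nearer to WT 1 than to the other KO libraries. In summed FPKM, beta exceeded alpha 5.28-fold in WT 1 and 5.39-, 7.70- and 7.19-fold in the KO libraries.

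A ribosomal RNA gene, CT010467.1, took 2.47% of WT 1 and 1.49%, 0.554% and 0.565% of the KO libraries. The libraries with more beta tubulin counts were thus those with a smaller share of this gene. With nuclear protein-coding genes as the denominator, the KO mean of the beta share was 1.309 times WT 1, against 1.335 times with all counts. The part of ribosomal RNA content in the counts of these libraries was not tested. In such libraries a change in mRNA amount, in the number of cells of a type and in how well tails of altered length are primed by oligo(dT) cannot be told apart.

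None of the isotypes passed the test of KO against WT 1. Of the 10 genes, 9 had enough counts to be tested, all but Tuba8, and 0 of them had an adjusted p of 0.05 or less in edgeR's quasi-likelihood test, where 1.93% of the 17799 genes tested passed and 1.32% passed as higher in KO oocytes. An unadjusted p under 0.05 was seen for 2, against 13.3% of all genes tested, and DESeq2 and limma-voom called 0. The fitted log2 fold change was positive for 8 of the 9, against 51.3% of all genes tested, with a median of 0.34 against 0.02 over all genes tested. All KO libraries lay above WT 1 for 5 of the 9, namely Tuba1a, Tuba1b, Tubb2b, Tubb3 and Tubb4b, and below it for 0; over all genes tested 29.1% lay above and 29.2% below.

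Among the 9 isotypes tested, Tubb3 had the lowest p. It stood at 192 CPM in WT 1 against a KO mean of 381 ± 85.1 CPM (SD, n = 3). The estimated log2 difference was 0.99 (SE 0.37, edgeR adjusted p = 0.27). Tubb2b followed with 19.98 and 43.3 ± 14.9 CPM, a difference of 1.12 (SE 0.44, adjusted p = 0.302). Both were about as far from WT 1 as a doubling, yet the spread among the KO libraries and the single WT library left them short of the threshold. Tuba1a, at 0.878 and 2.03 ± 0.760 CPM, had the highest estimate of the 9, 1.22, and also the widest error (SE 0.70, adjusted p = 0.505).

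The abundant isotypes had smaller estimates. Tubb4b stood at 874 CPM against a KO mean of 1207 ± 266 CPM (SD, n = 3), an estimate of 0.47 (SE 0.35, edgeR adjusted p = 0.626), and Tubb2a at 435 and 550 ± 191 CPM, 0.34 (SE 0.41, adjusted p = 0.776). Tuba1b, Tuba1c, Tuba4a and Tubb5 had estimates of 0.28, 0.13, -0.04 and 0.01, each within its standard error (0.31, 0.32, 0.30 and 0.32) of 0, with adjusted p from 0.756 to 0.99. The sign for Tubb5 turned to -0.025 under library-size scaling. These misses do not show that the levels were equal: the standard errors leave room for changes in either direction.

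Leaving out KO 1 changed the calls of beta isotypes. Without it, 4 of the 9 passed and rose, Tubb2a, Tubb2b, Tubb3 and Tubb4b, with log2 fold changes of 0.58, 1.17, 1.17 and 0.64 and edgeR adjusted p of 0.00669, 1.45e-05, 1.49e-08 and 0.00269. In that fit KO 2 and KO 3 alone gave the spread, and 15.4% of all genes tested rose, 28.1% passing in either direction. Tubb5 (0.14, adjusted p = 0.598) did not pass in it, nor did any alpha isotype. Whether the isotypes differ from one another in their change was not tested.

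**Figure D4:**
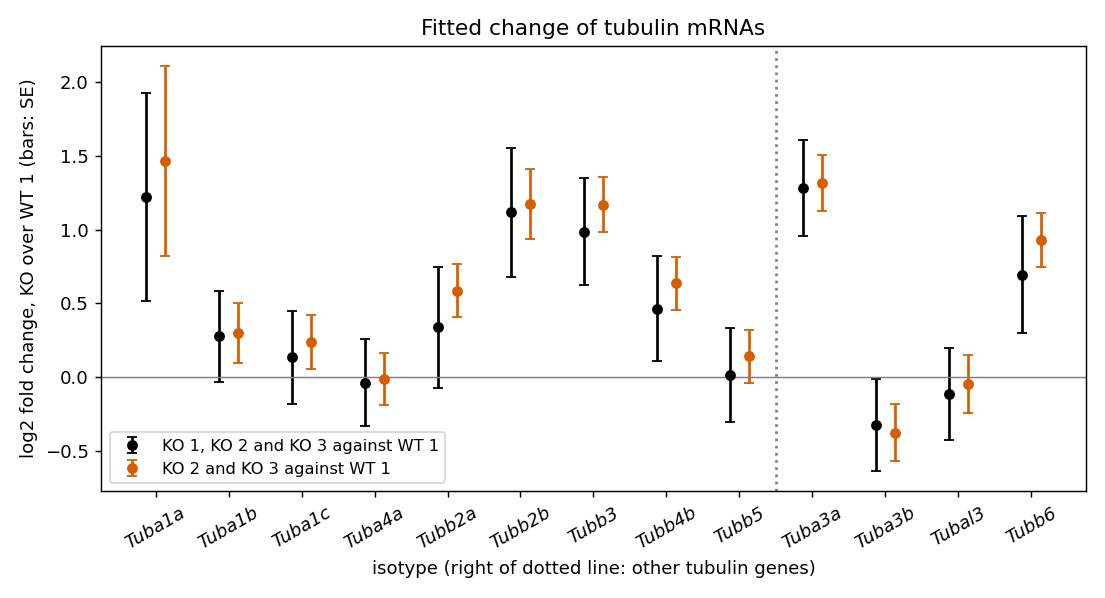
Fitted log2 fold change of KO over WT 1 with its standard error for the 9 isotypes tested and, right of the dotted line, for 4 other tubulin genes, with all KO libraries (black) and without KO 1 (orange). Tubb3, at 0.99 with all KO libraries and 1.17 without KO 1, and Tubb2b lie highest among the beta isotypes, and Tuba4a and Tubb5 lie nearest to 0.

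The table also holds tubulin genes outside these 10. Among alpha genes the mouse oocyte had much Tuba3a, an isotype known from testis, at 76.6 FPKM in WT 1 and 179, 199 and 181 FPKM in the KO libraries. It did not pass (log2 fold change 1.28, SE 0.33, edgeR adjusted p = 0.0925), but its calls changed with the tool: adjusted p was 0.00677 in DESeq2, 0.0615 in limma-voom, 0.038 with no filter on low counts and 2.08e-10 without KO 1. With every alpha and beta gene and pseudogene of the table counted, alpha came to 317 summed FPKM in WT 1 and 407, 458 and 417 FPKM in the KO libraries, and beta then exceeded alpha 3.18-fold in WT 1 and 2.52-, 3.76- and 3.73-fold in the KO libraries. The excess of KO over WT 1 in the ratio of beta to alpha, seen in the 10 isotypes in each KO library, was thus reversed in KO 1 once these genes were counted. Tuba3a then made up 24.2% of alpha tubulin in WT 1 and 43.4% to 43.9% in the KO libraries, and Tuba1c 22.9% and 16.8% to 19.6%.

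Genes that fold, nucleate, bind or modify tubulin were described from lists chosen with earlier results of these data known. None of their members passed in edgeR: 0 of 8 other tubulin genes, 0 of 21 chaperones and cofactors of tubulin folding, 0 of 14 genes of tubulin mRNA autoregulation and of the CCR4-NOT and PAN2-PAN3 deadenylases, 0 of 20 genes of microtubule nucleation, 0 of 30 microtubule-binding genes and 0 of 7 tubulin-modifying genes. Unadjusted p was under 0.05 in 1, 0, 1, 3, 2 and 1 of them, against 13.3% of all genes tested. The 1 in the autoregulation list was Pan2, the deleted gene. Without KO 1, 5, 11, 7, 7, 11 and 1 of them passed in either direction, where 28.1% of all genes did. Median log2 fold changes were 0.42, -0.10, -0.03, 0.23, 0.06 and -0.30, against 0.02 over all genes tested.

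In the autoregulation list the lowest p was that of Pan2 itself, the deleted gene, at 77.6 CPM in WT 1 and 44.6, 11.9 and 34.0 CPM in the KO libraries (edgeR adjusted p = 0.301; 0.0085 with no filter on low counts and 1.42e-14 without KO 1). Every KO library was lower, though none was at 0. In the nucleation list Haus8 and Haus1, subunits of the augmin complex that branches new microtubules off old ones, had opposite signs. Haus8 stood at 66.7 CPM against a KO mean of 168 ± 24.9 CPM (SD, n = 3; log2 fold change 1.33, edgeR adjusted p = 0.1; 0.00938 in DESeq2, 0.0288 with no filter and 9.93e-12 without KO 1), and Haus1 at 99.4 and 37.0 ± 17.0 CPM (-1.43, adjusted p = 0.166; 0.0637 in DESeq2, 0.00364 with no filter and 2.94e-17 without KO 1). Among modifiers Svbp, the partner of the vasohibins that remove the C-terminal tyrosine, stood at 87.8 and 49.1 ± 3.08 CPM (-0.84, adjusted p = 0.246; 0.000101 without KO 1).

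**Figure D5:**
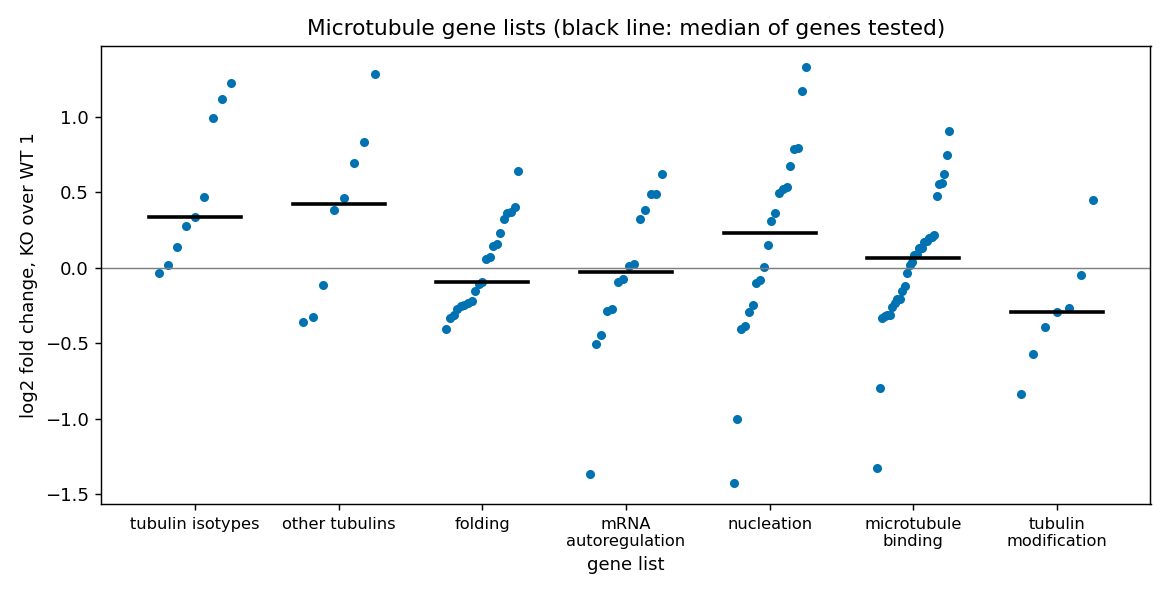
Fitted log2 fold change of KO over WT 1 for each tested gene of 7 microtubule gene lists (points, sorted within a list), with the median of each list as a black line. The medians of the tubulin lists, 0.34 and 0.42, lie above those of folding, -0.10, and tubulin modification, -0.30.

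Markers of other ovarian cells were low but not alike in both genotypes. The 18 granulosa and cumulus markers summed to 65.0 CPM in WT 1 and 95.7, 100.5 and 85.6 CPM in the KO libraries, with Ptx3 and Tnfaip6 at 0 in all 4. Most of that sum came from Nr5a2 and Cyp19a1. Nr5a2 stood at 42.5 CPM in WT 1 and 36.8 to 47.1 CPM in the KO libraries, with a fitted log2 fold change of 0.03. Cyp19a1 stood at 13.9 and 35.1 to 46.1 CPM, with a fitted log2 fold change of 1.48. The defining markers Amh and Foxl2 were at 0 to 0.325 CPM. The 12 theca, stromal and endothelial markers summed to 18.1 CPM in WT 1 and 30.6 to 31.5 CPM in the KO libraries, with Col1a2, Col3a1 and Cdh5 at 0 and most of the sum from Pecam1 (14.7 CPM and 24.7 to 26.3 CPM). The 8 blood markers summed to 1.38 CPM in WT 1 and 1.53 to 5.14 CPM in the KO libraries, with 5, the haemoglobin genes and Cd52, at 0. All 3 lists summed higher in every KO library than in WT 1, and Tubb3 and Tubb2b were higher as well. Most of the granulosa and cumulus difference came from Cyp19a1, and Nr5a2 in KO 3 lay below WT 1. Of the 9 granulosa and cumulus markers tested, 8 had a positive log2 fold change. Cd68, the highest blood marker, stood at 1.38 CPM in both WT 1 and KO 3. The part of other ovarian cells in the levels of Tubb3 and Tubb2b was not tested.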

How the data were processed

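Full-grown oocyte RNA was made into Smart-seq2 libraries primed with oligo(dT) and sequenced in paired-end mode, per the labels' protocols. The authors deposited unnormalized gene counts, per the file headers; the submitters' processing notes list Trim Galore 0.6.7, STAR 2.7.10a, featureCounts 2.0.2, DESeq2 and mm10. Groups came from sample titles. Of 55291 table rows, 53180 matched 1 gene of GENCODE M21, which gave coordinates, transcripts and coding sequences. Differences were tested over all genes by the robust quasi-likelihood method of edgeR 4.0.16 in R 4.3.3, after filterByExpr and TMM scaling, with Benjamini-Hochberg adjustment and a threshold of 0.05, for WT 1 against 3 KO libraries; it assumes that WT 1 varies like them. DESeq2 1.42.0 and limma 3.58.1 (voom) were alternatives. FPKM used the exon length of the deposited table. Coding identity came from Biopython 1.88 global alignments. The fit was also run on simulated counts drawn with the same spread for both genotypes, so that run cannot check whether WT 1 varies like the KO libraries. Totals of 12038990 to 26770521 counts make 1 count worth 0.0374 to 0.0831 CPM. All 10 isotypes are named; of each gene list, members that passed or, where none did, candidates among the 2 with the lowest p. Members and lists were chosen with earlier results of these data known. WT 2 was left out of the main fit.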

Additional observations from a re-analysis of the deposited data

Results flagged for a closer look

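WT 2, which the main comparison leaves out, had a higher CPM than WT 1 at 3 tubulin genes outside the 10 isotypes: Tubal3, an alpha-like gene, with 394 CPM against 75.8 CPM in WT 1, Tubg1, the main gamma tubulin, with 375 against 59.0 CPM, and the pseudogene Tubb4b-ps1 with 12.7 against 2.76 CPM. The counts of WT 2 did not follow those of the other libraries (correlations of 0.0374 to 0.0563 over genes), so they need not come from these genes. At the 10 isotypes WT 2 had 4 genes at 0.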

How the results depend on the processing

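With all KO libraries, 0 isotypes passed under each alternative run: DESeq2 size factors, library size alone, no filter, a mean of at least 5 CPM, DESeq2, limma-voom, and WT 2 included with or without the block. Leaving out 1 KO library gave 0 to 4 isotypes and 425 to 4923 genes in all, the higher values without KO 1. The count over all genes, 344, was 868 with no filter, 126 at a mean of at least 5 CPM, 688 with DESeq2 and 0 with WT 2 included. Tubb5 turned negative with library size alone (-0.025), at 5 CPM (-0.019) and without KO 2 or KO 3 (leaving out a KO library gave -0.082 to 0.14), and Tuba4a turned positive with WT 2 included (0.94; 2.87 with the replicate block); the cause was not tested. The alpha share of counts, 1.03 times WT 1 in KO oocytes, was 1.19 times with all alpha genes and pseudogenes counted. Of 110 isotype shares recomputed, 51 moved by more than 1 SD of the KO libraries, all of them with another length or a wider family. The recomputations that left out a KO library could not move that far. The mean of 3 values always shifts by less than their SD when 1 is left out, so these runs say nothing on stability. A replicate block needs WT 2, as WT 1 and the KO group share 1 number. With it, 0 genes passed; the deviations of same-numbered libraries from their group means correlated at -0.0245 and -0.0547, but WT 2 sets the WT deviations, so this does not show whether the numbers pair libraries. The precision of Tuba1a and Tuba8 is limited by 15 to 61 and 0 to 4 counts.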

Other observations

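Tuba3a and Tuba3b, alpha isotypes whose transcripts share windows with each other, took opposite positions. Tuba3b stood at 51.3 FPKM in WT 1 and 44.2, 44.0 and 34.7 FPKM in KO 1, KO 2 and KO 3, all below WT 1, and did not pass (log2 fold change -0.32, SE 0.31, edgeR adjusted p = 0.713). In FPKM, the ratio of Tuba3a to Tuba3b was 1.49 in WT 1 and 4.04, 4.53 and 5.22 in the KO libraries. The scaling between libraries cancels in this within-library value. Division by exon length does not cancel, but it changes the ratio by the same factor in every library. Of their windows 87.7% and 88.2% were found in no other gene.

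Tubb6, a beta isotype outside the 10, was at 134 FPKM in WT 1 and 142, 253 and 256 FPKM in KO 1, KO 2 and KO 3, and did not pass (edgeR adjusted p = 0.5). Its KO 1 value lay beside WT 1, as those of Tubb4b did. The ratio of Tubb2b to Tubb2a was 0.0322 in WT 1 and 0.0811, 0.0291 and 0.0732 in the KO libraries, so KO 2 and not KO 1 lay beside WT 1 for it.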
